A study of Mus musculus with 33 samples.

Results

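Of 12867 genes measured in mouse dorsal skin, the 100 described here were the ones that stood out most at postnatal day 41 (P41), in mid catagen. They were compared with every other sampled day of the natural hair cycle except P34. Signals under a floor of 34.6 were set to the floor and converted to log2, and for each gene the mean at P41 was set against the highest of the means at P23, P25, P27, P29, P37, P39 and P44. This difference is called the peak score, in log2 units, and the 100 genes with the largest score are the members. The members were thus chosen by the signals of the P23 to P44 arrays other than P34, so differences between days there are a description and carry no test. P34 and the 10 arrays of skin after depilation took no part in the choice.

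Dorsal skin was taken from C57BL/6 wild-type mice, with 1 array of the Affymetrix mouse genome design for each of 33 mice. By the description of the series, P23 and P25 are early anagen (2 mice each), P27 is mid anagen (3), P29 (3) and P34 (1) are late anagen, P37 and P39 are early catagen (3 each), P41 is mid catagen (3, namely 1 female and 2 males) and P44 is telogen (3). In a further 10 females hair growth was induced by waxing off the resting coat at 7 weeks of age, and skin was taken 3 (D3, early anagen), 5 (D5, mid anagen), 8 and 12 (D8 and D12, late anagen) and 17 days later (D17, early catagen), with 2 mice a day. The labels of the P41, P44 and depilation arrays themselves carry the words early anagen, and the day was used here. Whole skin was measured, so fewer cells of a type and less RNA per cell cannot be told apart.

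Catagen is the phase in which the growing hair follicle regresses. Matrix keratinocytes stop dividing and pigment cells stop making melanin, the lower follicle is removed largely by apoptosis, the base of the shaft hardens into a club, and the dermal papilla is drawn up towards the bulge while the glassy membrane thickens.

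In hair shaft and skeletal muscle genes the P41 skin lay between early catagen and telogen, and other lists placed it elsewhere. The summed signal of 24 hair shaft genes was 142939 to 197329 at P41, against 351820.0 to 412454 at P37 and P39 and 4272 to 9656 at P44. The 30 skeletal muscle genes summed to 321063 to 348747 at P41, against 170228 to 242045 at P37 and P39 and 465724 to 523095 at P44, and the 27 macrophage genes to 73525 to 99060.5, against 51667 to 86944 and 113868 to 163360.0. Genes of fatty acid and cholesterol synthesis summed to 68035 to 69561 at P41, against 68328 to 82742 and 92449.5 to 103517, and genes of the outer root sheath and companion layer to 124856 to 152891, against 110635 to 143760.0 and 90498 to 110095. No member was on the skeletal muscle or macrophage list. Replicate arrays correlated at r = 0.943 (D5) or above over the probe sets kept, and the P41 arrays at 0.955 to 0.980.

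The promoters of 4 members are shown because they carry a recognisable element in a gene of the groups described below. They are RefSeq windows of the GRCm38.p6 build, from 250 bases before to 50 after the start of transcription, written in the direction of the gene with the element in capitals. Pcdh8 (minus strand of chr14:79771263-79771562) and Krtap6-3 (plus strand of chr16:89083774-89084073) have a TATAAA box, whose capitals begin 30 and 31 bases before the start.
Pcdh8: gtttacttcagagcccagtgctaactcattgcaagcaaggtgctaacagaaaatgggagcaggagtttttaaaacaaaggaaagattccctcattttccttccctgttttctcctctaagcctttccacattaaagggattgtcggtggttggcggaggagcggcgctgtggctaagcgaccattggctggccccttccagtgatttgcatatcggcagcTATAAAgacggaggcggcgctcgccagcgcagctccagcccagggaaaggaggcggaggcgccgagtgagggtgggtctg
Krtap6-3: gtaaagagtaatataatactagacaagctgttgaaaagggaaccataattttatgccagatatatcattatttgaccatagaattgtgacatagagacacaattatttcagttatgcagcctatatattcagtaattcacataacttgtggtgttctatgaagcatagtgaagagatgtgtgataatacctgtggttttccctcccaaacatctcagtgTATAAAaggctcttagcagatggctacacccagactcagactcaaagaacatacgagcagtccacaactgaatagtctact
Fam107a (minus strand of chr14:8309730-8310029) and Sgk1 (plus strand of chr10:21993640-21993939) have a match to the palindrome known to be bound by the glucocorticoid receptor, searched as GNACA, any 3 bases and TGTNC.
Fam107a: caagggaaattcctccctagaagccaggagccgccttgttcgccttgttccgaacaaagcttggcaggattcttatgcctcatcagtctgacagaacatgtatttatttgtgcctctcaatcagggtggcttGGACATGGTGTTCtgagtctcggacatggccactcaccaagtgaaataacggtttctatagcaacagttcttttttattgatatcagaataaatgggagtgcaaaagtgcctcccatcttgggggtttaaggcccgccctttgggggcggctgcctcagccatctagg
Sgk1: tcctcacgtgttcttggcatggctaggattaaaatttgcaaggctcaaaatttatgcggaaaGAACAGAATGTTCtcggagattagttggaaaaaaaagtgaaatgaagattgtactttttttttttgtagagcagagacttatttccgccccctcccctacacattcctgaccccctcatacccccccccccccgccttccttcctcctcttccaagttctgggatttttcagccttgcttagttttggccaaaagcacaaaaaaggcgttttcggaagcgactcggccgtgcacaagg
RefSeq windows were at hand for 77 members, 100 windows in all, and for 10327 of the genes measured, 13222 windows. The glucocorticoid receptor letters were in 4.0% of the members' windows, in Fam107a, Kcna5 and Sgk1, and in 0.31% of all windows, a motif that was added after the members were known. On either strand TATAAA was in 11.0% of the members' windows and 8.3% of all, CACGTG in 12.0% and 9.63%, CAGCTG in 16% and 15.7%, CCAAT in 36.0% and 37.0%, GGGCGG in 58.0% and 60.1%, and an interferon element, searched as GAAA, any 2 bases and GAAA, in 3.0% and 3.02%. A MEF2 site was in 0% of the members' windows and 0.121% of all, so that apart from the receptor letters the shares lay close to those of all genes. A match in these letters is not evidence that a factor binds.

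Peaks at mid catagen were few and mostly modest. Of the 12867 genes, 1068 (8.30%) had a score above 0, and the median score over all genes was -0.43. The members had a median score of 0.61, which is 1.52-fold, with 19 at 1 or more and 4 at 2 or more. The last members were Tepsin (0.47), the cannabinoid receptor gene Cnr1 (0.469) and the fibulin gene Fbln7 (0.469), and the first genes outside were Sphk1 (0.466), Prss12 (0.465) and Rerg (0.461), so the edge of the list falls between nearly equal values. All 3 P41 arrays lay above the other 19 arrays scored for 57 members, and for 124 genes, or 0.964%, of all. Since the rule used these arrays, nothing is read from that difference.

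**Figure D1:**
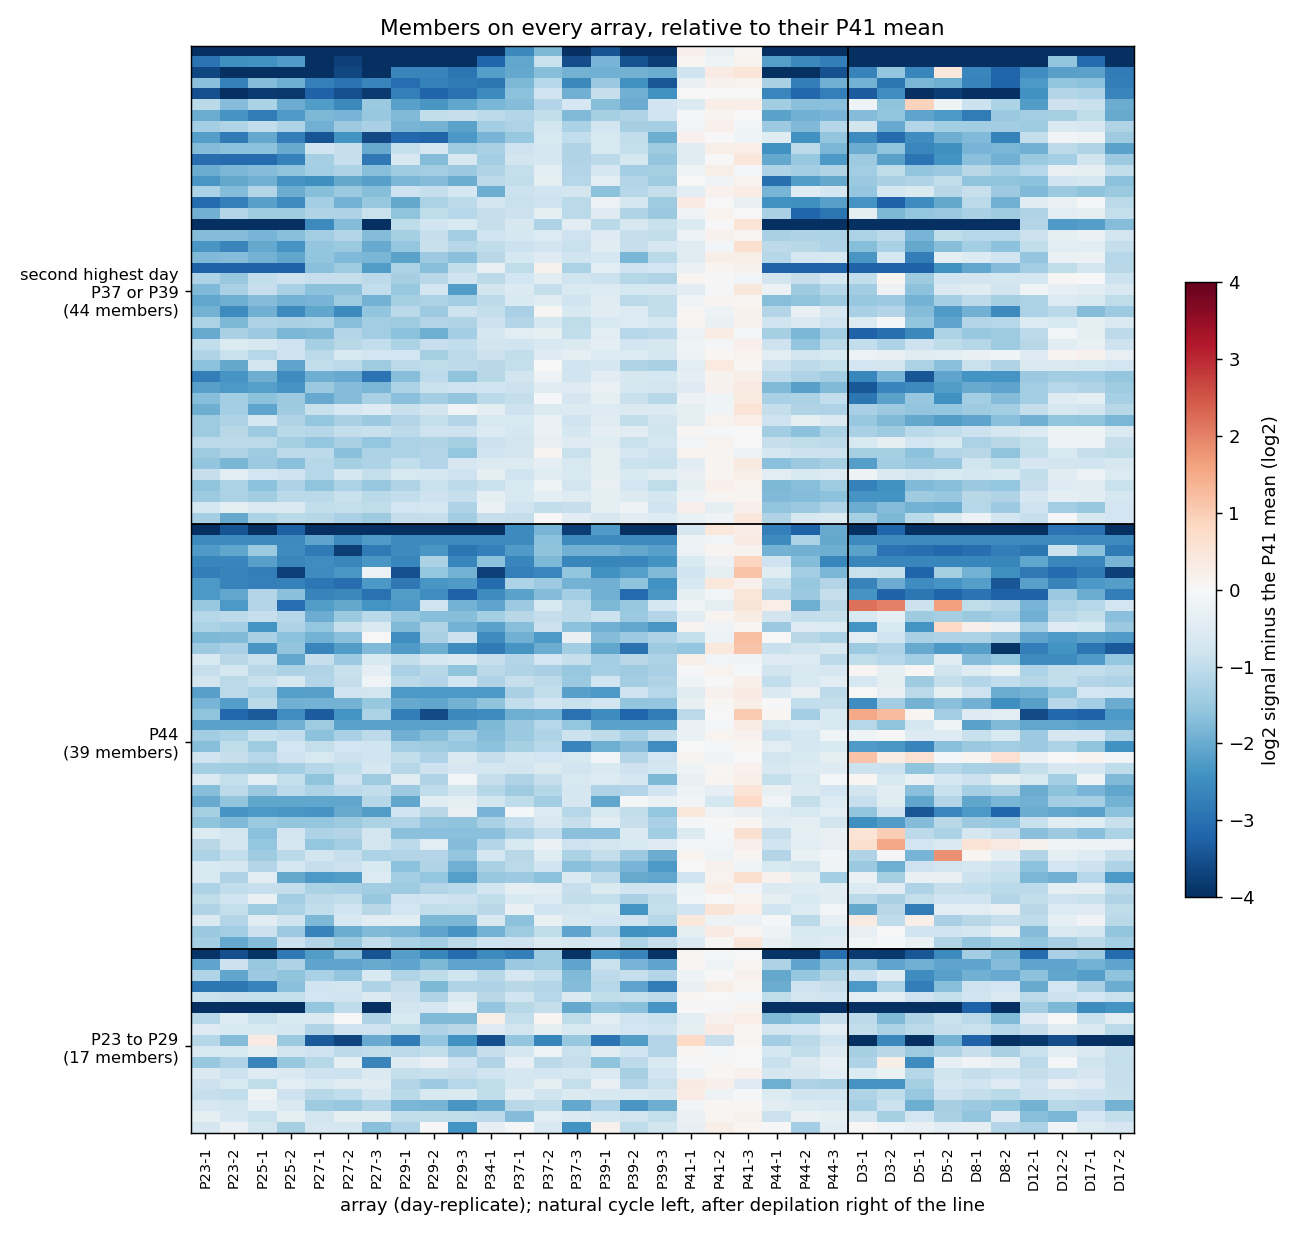
Log2 signal of the 100 members (rows) on all 33 arrays (columns, day and replicate), each relative to the member's own mean at P41; red is above and blue below that mean, and the colour scale stops at 4 log2 units in either direction. Rows are ordered by the day with the second highest mean and then by score: 44 members had P37 or P39, 39 had P44 and 17 had P23 to P29 in that place.

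Of 16 matrix protease genes 1 was a member, Mmp11 (median score of the list -0.40), and of 21 fibroblast and collagen genes none was (median -0.55). The other matrix genes described with Mmp11 are on neither list and were named because they are among the 20 highest scores. Mmp11, which encodes the stromal metalloproteinase stromelysin-3, had signals of 1742, 3701 and 3353.5 at P41, against 420.4, 294 and 695 at P44, the next highest day, and 56.9 to 292 at P23 to P29. Its lowest P41 array was above the highest of all other natural arrays, 762 in P37 replicate 2, and the score was 2.66 (6.31-fold). Thbs1, whose product thrombospondin-1 can activate latent TGF-beta, had 6342, 6148 and 6266.5 at P41, against 2024, 3615.5 and 1641 at P37. The P41 arrays of Thbs1 differed by less than the spread within any of P37, P39 and P44, with a mean of 6252 ± 98 (SD, n = 3), and they did not overlap with another day.

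Smoc1, which encodes a secreted calcium-binding matricellular protein, had 1355.5, 1872 and 1845 at P41, against 477, 766 and 278 at P37. Col9a3, a chain of type IX collagen, had 159.9, 133 and 159 at P41 and 16.5 to 82.7 on the other arrays scored. Tll1, a tolloid-like protease of the family that trims procollagens, had 249, 307 and 463 at P41, against 146, 116 and 172 at P44. In all of these genes the 3 P41 arrays stood above every other natural array. Col9a3 rests on low signals, with many arrays close to the floor, although a second probe set of the gene scored 2.36. Mamdc2, a MAM domain gene, had 524.5, 1069 and 917 at P41, against 412, 278 and 358 at P44, and P41 replicate 1 was the lowest of the 3 in it, as in Mmp11 and Smoc1.

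The highest score belonged to Gm9789, a predicted gene. It had 13986.5, 9914 and 12632 at P41, against 2025.5, 3488 and 408.5 at P37 and 1096, 516 and 62.8 at P39, and P34 stood at 215. At P23, P25 and P44 all of its arrays were under the floor, where no fold can be given, and over P37 the difference was 3.08 log2 units (8.47-fold). The 3 arrays of P37 spread over nearly an order of magnitude, and those of P39 over more, while the P41 arrays lay close together.

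**Figure D2:**
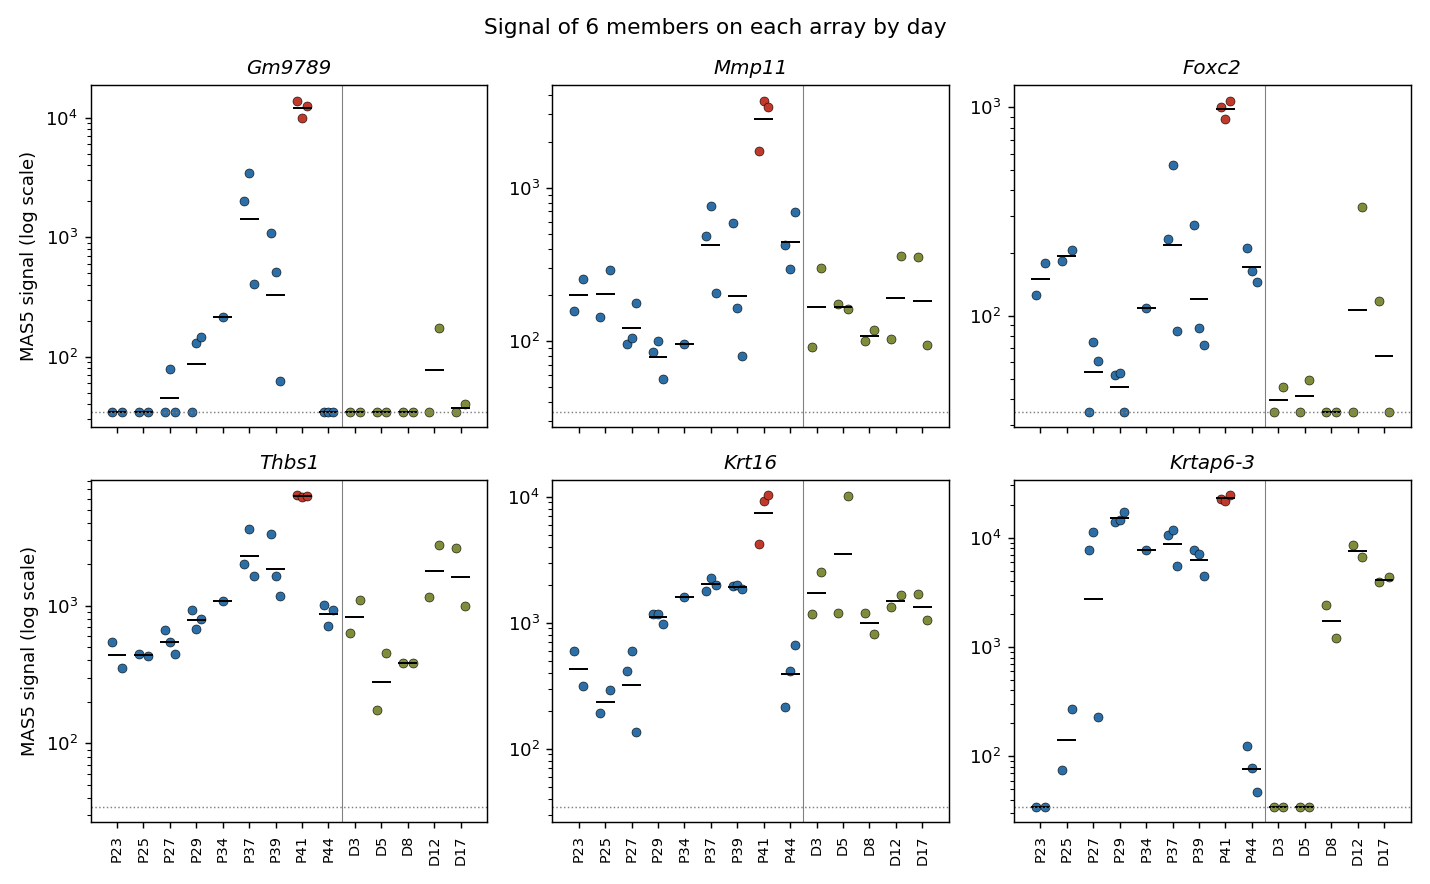
Signal of 6 members on every array, on a log axis, with days of the natural cycle left and days after depilation right of the vertical line. Each point is 1 mouse, bars are means of log2 values, P41 is red, and signals under the floor of 34.6 (dotted) are drawn on it. In Gm9789, Mmp11, Foxc2, Thbs1 and Krtap6-3 all 3 P41 points lie above all others, and in Krt16 D5 replicate 2, at 10212, reaches the level of P41.

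Lists of signalling genes held few members. The TGF-beta and activin list (15 genes) had Inhbb, and the FGF, EGF and IGF ligand list (21) had Igfbp3. The nuclear receptor and retinoid list (15) had Aldh1a2, and the WNT (26), BMP (16) and hedgehog (11) lists had none. The lists do not hold every gene of a pathway. Wnt9a, for 1, was a member with a score of 0.58 but was not on the WNT list. Foxc2, a forkhead transcription factor of mesenchyme and lymphatic vessels, had 1007, 879 and 1078 at P41, against 233, 527 and 84.4 at P37 and 182 and 206 at P25. The P41 arrays of Foxc2 lay together and above all others, while P37 replicate 2 was the highest of the rest. Pcdh8, a protocadherin whose promoter is printed above, had 544, 502 and 530.2 at P41 and 3.5 to 197 on the other arrays scored, with the next highest mean at P27. Pcp4, a calmodulin-binding protein, had 415, 519 and 531 at P41, against 130.1, 128 and 126 at P44. Shisa2, a member of a family that in Xenopus holds back Wnt and FGF receptors, had 3056, 3782 and 3044 at P41, against 1381, 1964 and 1371 at P37.

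Aldh1a2, which makes retinoic acid, had 668, 585 and 530.3 at P41, against 205, 378 and 297 at P37 and 379, 302 and 154 at P39. At P23 to P29 it was at 48.2 to 142.5, below every P37 and P39 array, while the P34 array of late anagen, at 164, was above P39 replicate 3. Its P41 arrays were above all others of the natural cycle. Inhbb, the beta subunit of activin B, had 2329, 2714 and 2598.5 at P41, against 1661, 1809.8 and 1479 at P37 and 778, 825 and 956 at P44. The P41 arrays of Inhbb did not overlap with other days either. Igfbp3, which binds insulin-like growth factors, had 4683, 7589 and 6323 at P41, against 5268.5, 3905 and 3993 at P44, and here P44 replicate 1 exceeded P41 replicate 1.

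A further 4 of the 20 highest scores belonged to genes on none of the lists. Slc38a5, a glutamine transporter, had 175, 189 and 254 at P41, against 32.2, 85.2 and 49.4 at P44, and most arrays of the other days were under the floor. Best2, an anion channel, had 139, 182 and 384 at P41, against 119, 64.5 and 5.4 at P44, and its level at P23 was under the floor. Both genes are dim, and their scores of 1.95 and 1.73 are understated to the extent that the floor replaced lower signals. Ppp1r3c, which directs protein phosphatase 1 to glycogen, had 4536, 7953 and 7938 at P41, against 1963, 2915 and 4122 at P37. Clvs1, a lipid-binding protein, had 225, 255 and 236 at P41 and 7.1 to 137 on the other arrays scored. The P41 arrays of these 4 genes were all above the other natural arrays.

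Keratin genes of the follicle were among the members although the hair shaft list as a whole was lower at P41 than in early catagen. Krt16, a keratin of the companion layer and of activated epidermis, had 4240.3, 9289.9 and 10251 at P41, against 1793, 2282 and 1988 at P37, 1942, 1983 and 1856 at P39 and 216, 412.5 and 664 at P44. Its P41 arrays were all above the others, with replicate 1, the female, at less than the level of the males; array and sex cannot be told apart there. Krtap6-3, a keratin-associated protein of the shaft, had 22731, 21483 and 24374 at P41, against 13775, 14380.0 and 17307 at P29 and 7693, 7129 and 4440.3 at P39. Krt84, a keratin of the hair shaft list, had 2472, 3680.3 and 5338 at P41, against 2360.4, 1557 and 2742 at P37, and P41 replicate 1 lay within the P37 range. At P44 both shaft genes were far lower, 46.8 to 123 for Krtap6-3 and 71.3 to 89.7 for Krt84. The median score of the 24 hair shaft genes on the list was -1.55, and Krt84 was the member among them.

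Of 15 genes of the outer root sheath and companion layer, 3 were members (Krt16, Lgr5 and Sox9), 6 had a score above 0, and the median was -0.03, beside -0.43 over all genes. Lgr5, an R-spondin receptor of bulge and hair germ stem cells, had 2347.5, 2146 and 1296 at P41, against 1236, 1330.5 and 1331 at P27 and 478.5, 788 and 765 at P44. P41 replicate 3 overlapped with anagen, and P44 had the lowest mean of the natural days. Sox9, a transcription factor of the outer root sheath and bulge, had 1892, 2762 and 2663 at P41, against 1593, 2141 and 1461 at P37 and 685.5, 741 and 907 at P44, and likewise overlapped with P37. The 3 others with a score above 0 were Krt6a (0.22), Lrig1 (0.19) and Gata6 (0.13), while Krt5 was at -0.03, Krt15 at -0.25 and Krt75 at -1.21.

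Genes that glucocorticoids are known to induce made up the largest share of any list. Of 13 such genes, 5 were members (Angptl4, Lcn2, Fkbp5, Pdk4 and Sgk1), 7 had a score above 0, and the median score was 0.12. Sgk1, a kinase of ion transport, had 8903, 10485 and 11430.3 at P41, against 6568, 7018 and 7198 at P44, and all P41 arrays were above all others. Angptl4, an inhibitor of lipoprotein lipase, had 3791.5, 4309 and 4783.5 at P41, against 1859.7, 2108 and 2435 at P29, again without overlap. Fkbp5, a co-chaperone of the glucocorticoid receptor, had 1252, 2085 and 5611 at P41, against 2426, 1125 and 1017 at P44. Here the P41 arrays ran from within the range of other days to far above it. Pdk4, which inhibits pyruvate dehydrogenase, had 2995, 6413 and 12924 at P41, against 6666, 2436 and 4098.5 at P44, with the same array highest. Lcn2, an iron-siderophore binding protein, had 256.5, 220.2 and 407.5 at P41, against 341, 73.2 and 133 at P44. Fam107a, a stress-induced actin-binding protein that was not on the list, had 268, 363 and 1013 at P41, against 328, 177 and 129 at P44.

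P41 replicate 3 set the rank of part of these genes. Without it the score of Fkbp5 was 0.20, and that of Pdk4 0.11, against 0.80 and 0.63 with it. Fam107a (0.67, against 1.24 with it), Sgk1 (0.48) and Angptl4 (0.93) kept scores above the last member's 0.469. With all P41 arrays, the second probe set of Fam107a scored 0.26, below that edge, and the second of Fkbp5 scored 1.00. The summed signal of the 13 genes was 51949, 60175 and 104018 on the P41 arrays, against 33527 to 62917.5 at P23 to P34, 38293 to 48488 at P37 and P39 and 46735 to 55789 at P44, so that P41 replicates 1 and 2 lay within the range of other days. On P41 replicate 3 the 4 metallothionein genes summed to 35757, against 13549 and 16034 on the other P41 arrays, and the 15 muscle regulation genes to 25273, against 16717 and 17520.3. The part of these genes in the members' values was not tested. Spock2, a proteoglycan gene singled out after its values were seen, spread most among members at P41, with 225, 884.5 and 1440.5.

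**Figure D3:**
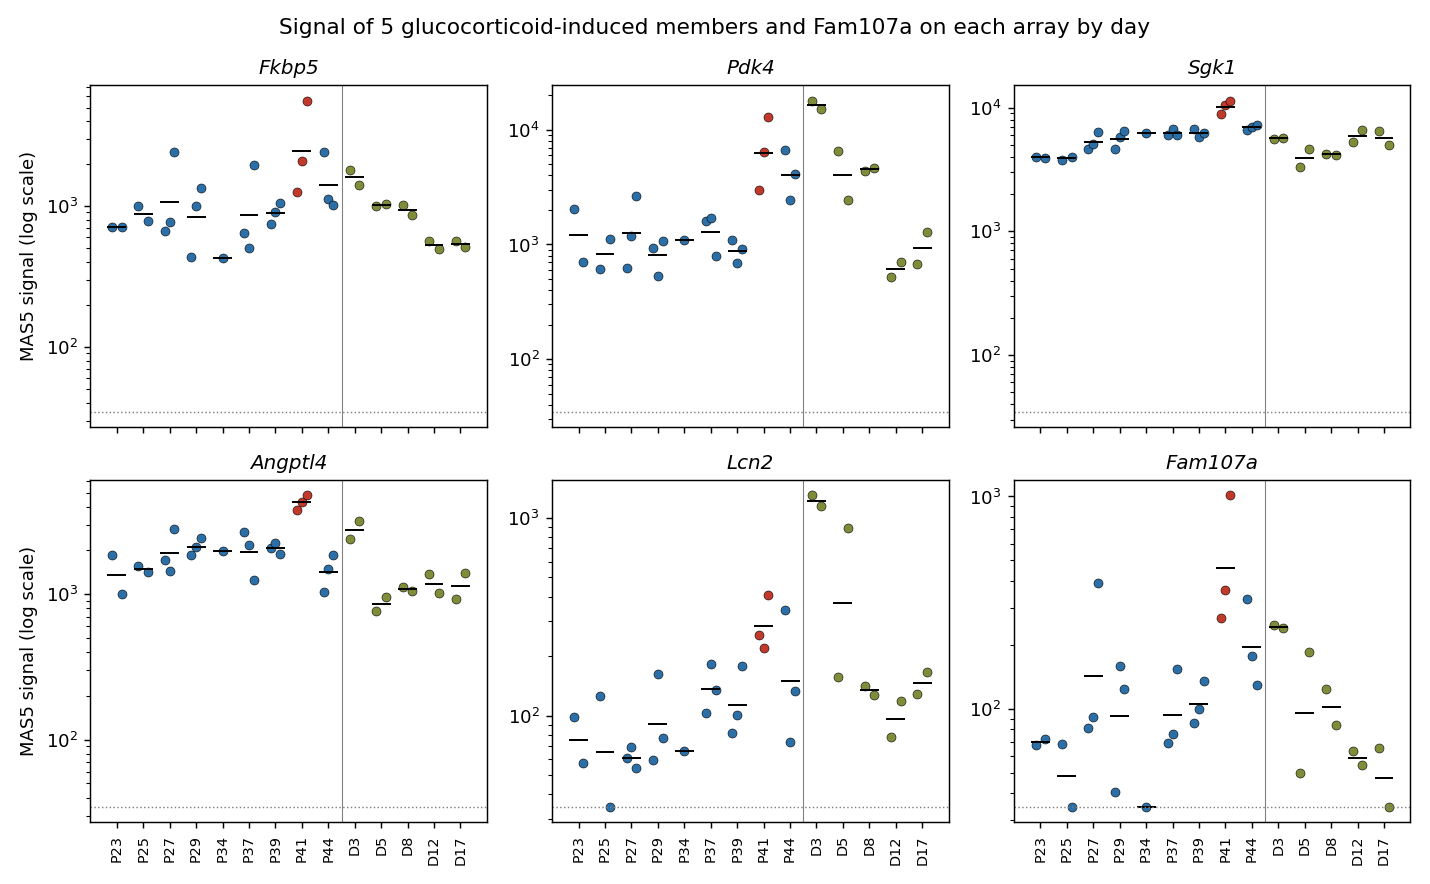
Signal of the 5 glucocorticoid-induced members and of Fam107a on every array, on a log axis, drawn as in the plot of the leading members. P41 replicate 3, the right point of the red set, stands highest of the P41 arrays in all 6 genes, and D3 is at or above the P41 mean for Lcn2 and Pdk4.

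The apoptosis list held 2 members, and members off that list were not sorted by a part in cell death. Casp1, the inflammasome protease, had 1064, 1078 and 1146 at P41, against 797, 839.8 and 658 at P44, with no overlap. Bcl2l11, which encodes the pro-apoptotic protein Bim, had 796, 666 and 740.2 at P41, against 437, 484 and 571 at P44, where P39 replicate 1 (673) reached above the lowest P41 array. Of 27 apoptosis genes 7 had a score above 0, with a median of -0.35 beside -0.43 over all genes, and their summed signal was 28679.7 to 29909 at P41 and 23413 to 27875 on the other natural arrays. The sum is a description on arrays that chose the members. After depilation the D8 arrays, at 30003 to 31928, and D5 replicate 2, at 31014, were higher still. D3 replicate 2, at 29471, lay within the P41 range.

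Among the other lists, Lyve1, a hyaluronan receptor of lymphatic endothelium, was the only member of 15 endothelial genes, with 4713, 1426 and 2916 at P41, against 3418 and 966 at P25. Its score was 0.57, and 0.17 without P41 replicate 1. Fbxo32, a ubiquitin ligase of muscle wasting, had 1395, 2146 and 2906 at P41, against 1649, 1370.1 and 1429 at P44. Ccn1, a matricellular immediate early gene, had 966, 963 and 1181 at P41, against 596, 762 and 828 at P44. Of these only Ccn1 had no overlap between P41 and the other days. The further probe sets of Ccn1 scored 0.50, -0.29 and -0.11, so not all of them peaked at P41. In all, 18 members were on at least 1 of the 49 lists, 6 of them on 2, beside 783 (6.09%) of all genes, and no member was on the mitosis, DNA replication, melanocyte, dermal papilla or inner root sheath lists.

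The P34 array took no part in the rule, but the P41 arrays did. Members chosen for high P41 means tend to lie below them on any other array, so the values are a description of 1 array. It lay below all 3 P41 arrays for 98 members, a count whose share over all genes was not taken. It lay below the P41 mean for 99 members and for 52.4% of all genes. The median difference (P34 minus P41) was -1.10 over members and -0.04 over all genes. The exception to the mean was Creb3l4, 0.23 higher at P34 and named after its value was seen.

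Members differed in which day came second, and that split went along with their course after depilation, which the rule did not use. For 44 members the second day was P37 or P39, for 39 it was P44 and for 17 a day of anagen. Of the 44, 34 had their highest depilation mean at D12 or D17 (23 and 11), and 4 at D3. Of the 39, 22 had it at D3 and 9 at D12 or D17 (7 and 2). The shares of all genes with their highest mean at D3, D5, D8, D12 and D17 were 33.3%, 18.9%, 14.6%, 21.0% and 12.1%. The group next highest in early catagen was thus high late after depilation, and the group next highest in telogen was high at D3, the earliest day sampled.

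The same groups differed in the fitted changes. From D5 to D8 and D12 the median log2 difference (D8 and D12 minus D5) was 0.58 in the 44, with 36 above 0, and -0.17 in the 39, with 12 above 0. D17 minus D8 and D12 had medians of 0.24, with 38 of 44 above 0, and -0.06, with 17 of 39 above 0. D5 minus D3 had medians of -0.05, with 20 of 44 above 0, and -0.43, with 11 of 39 above 0. Over all probe sets tested the medians were 0.03 (D5 minus D3), -0.04 (D8 and D12 minus D5) and -0.00 (D17 minus D8 and D12). The shares of all probe sets above 0 were 52.5%, 45.4% and 49.9% in the same order. The medians of D17 minus D8 and D12 rested on single arrays. Without D17 replicate 1 they were -0.01 in the 44 and -0.23 in the 39, without D17 replicate 2 0.52 and 0.14, without D12 replicate 1 0.10 and -0.14, without D12 replicate 2 0.42 and 0, and over all members 0.13 became -0.07 without D17 replicate 1. For D8 and D12 minus D5 the median stayed at 0.40 to 0.68 in the 44 and at -0.30 to -0.02 in the 39 whichever array was left out, while over all members 0.27 became 0.08 without D12 replicate 2 and 0.09 without D5 replicate 1. For D5 minus D3 it was 0.11 in the 44 without D5 replicate 1, and -0.53 to -0.40 in the 39 throughout. These are descriptions of groups formed from the natural arrays, and the difference between the groups was not tested.

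Single members were tested with limma on the 10 depilation arrays, with adjusted p-values over all 26988 probe sets. Across the 5 days 19 members passed an adjusted p of 0.05, where 10.2% of all probe sets did. Between D5 and D3, 5 members passed (background 2.66%), 1 of them higher (background 1.95%) and 4 lower (background 0.715%). Tox3, an HMG box gene, fell to 54.5 and 46.6 at D5, against 161 and 220.5 at D3, a log2 difference of -1.90 ± 0.23 (SE; limma adjusted p = 0.0098). Ccn1 fell to 608 and 688, against 1624 and 2995 (-1.77 ± 0.28, limma adjusted p = 0.026). Angptl4 fell to 772 and 958, against 2395 and 3192 (-1.69 ± 0.26, limma adjusted p = 0.024). Depdc7 fell to 138 and 94.7, against 282 and 396 (-1.55 ± 0.23, limma adjusted p = 0.022). Pdzrn3, a ubiquitin ligase with PDZ domains, rose to 3068 and 2889.6, against 1602 and 1584 (0.90 ± 0.17, limma adjusted p = 0.041). The arrays of both days were apart in all 5 genes, and of the 13 glucocorticoid genes 2 fell and none rose, with a median of -0.92. The call of Tox3 held under all 19 alternatives fitted with limma, and those of the other 4 were lost under 4 (Depdc7) to 11 (Pdzrn3) of them. All 5 were lost by the methods' t-test after Benjamini-Hochberg adjustment.

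Between D8 and D12 together and D5, 2 members passed (background 0.545%), 1 higher (background 0.43%) and 1 lower (background 0.115%). Krtap6-3 was at 2411 and 1215 at D8 and 8645 and 6609.6 at D12, while both D5 arrays were under the floor, so its fitted rise of 6.70 log2 units is a lower bound (limma adjusted p = 3.2e-05). Atp13a5, a P-type ATPase, fell to 17.8 and 44.5 at D8 and 36.1 and 35.8 at D12, against 92.8 and 136 at D5. Its later arrays lie at or near the floor, and the fitted difference of -1.58 is a bound as well (limma adjusted p = 0.030). The call of Krtap6-3 held under all 19 alternatives fitted with limma and that of Atp13a5 was lost under 10, and both were lost by the methods' t-test after adjustment. Between D17 and D8 with D12 limma called no member and no probe set (background 0%), with 5 members and 948 probe sets (3.51%) at an unadjusted p under 0.05.

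After depilation 6 members reached a mean above that of P41, and 73.0% of all genes did. The choice of members for high P41 means holds their count down. Lcn2 had 1299.5 and 1143 and Pdk4 18049.7 and 15201.5 at D3, and Ccn1, Bcl2l11 (1624 and 906) and Tox3 were also above P41 on that day. Ppp1r3c had 12439 and 5814 at D5, against 4536, 7953 and 7938 at P41. In these genes the peak at P41 held over the natural days alone. Depilated mice were older and all female, so day, age and treatment cannot be told apart from sex in this contrast.

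The leading members were low in most depilation arrays but not in all of them. Foxc2 had 8.5 and 332 at D12 and 118 and 5.4 at D17. Pcp4 had 63.5 and 265 at D12 and 157 and 68.5 at D17, and Mmp11 had 103 and 357.5 at D12 and 354 and 94.5 at D17. In each of them D12 replicate 2 and D17 replicate 1 were the higher arrays of their days. Thbs1 had 1155 and 2753 at D12 and 2630.2 and 1002 at D17, and Pcdh8 62.2 and 213 and 191 and 61.9, with the same arrays the higher of their days. Pcdh8 was not high on these arrays alone, since it had 200.3 and 146.9 at D8.

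This held across the list. D12 replicate 2 was above replicate 1 in 79 of 100 members and in 52.4% of all genes, with a median difference of 0.41 log2 units over members and 0.02 over all genes. D17 replicate 1 was above replicate 2 in 82 members and in 50% of all genes, with medians of 0.37 and 0. Of 99 members whose highest depilation array was not tied, 47 had it in D12 replicate 2 (33) or D17 replicate 1 (14), and 14.9% of all genes did. In early catagen of the natural cycle, whose arrays the rule did use, P37 replicate 2 was the highest of its day in 68 members (36.4% of all genes) and P39 replicate 1 in 69 (37.1%).

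**Figure D4:**
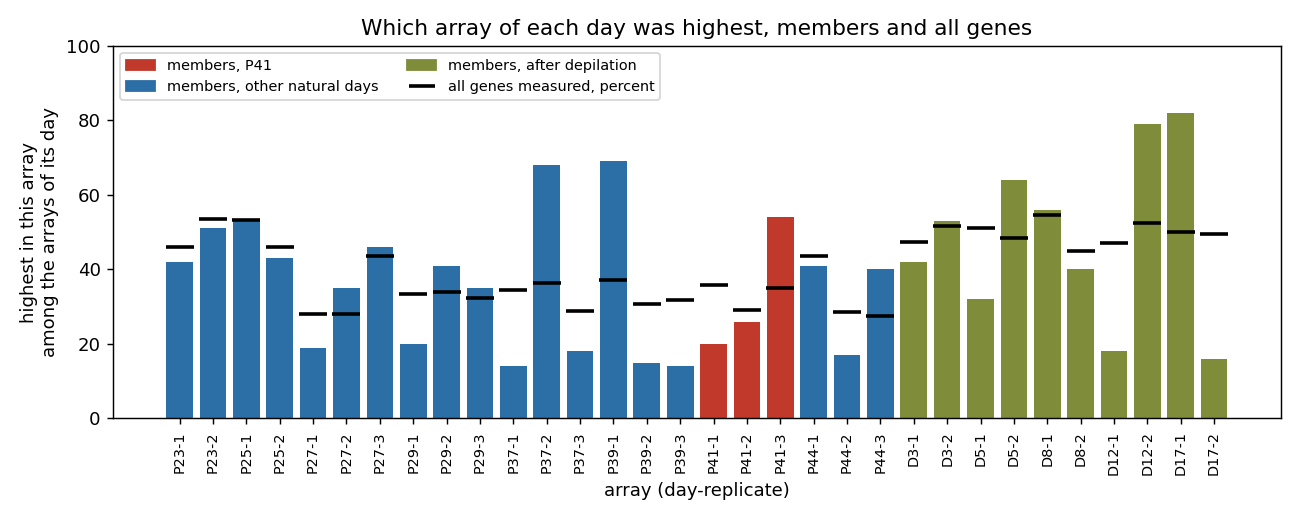
Number of the 100 members with their highest signal of a day in each array (bars) and the percent of all 12867 genes with it there (black marks), for the days with 2 or 3 arrays; genes tied for the highest value are counted in none. P37 replicate 2 (68), P39 replicate 1 (69), D12 replicate 2 (79) and D17 replicate 1 (82) stand above their marks by the widest margins.

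Of the 49 lists, 6 had their lowest sum of the day on all 4 of these arrays (mitosis, DNA replication, melanocyte, glucocorticoid induced, fat oxidation and ketone, metallothionein). Another 6 had their highest there (matrix proteases, TGF-beta and activin, nuclear receptors and retinoids, chemokines and receptors, muscle regulation, Schwann cell and nerve). The 4 arrays were singled out by the members' signals, and how many lists would be lowest or highest on all 4 by chance was not estimated. Both sets of lists hold members. The highest lists hold Mmp11, Inhbb, Aldh1a2 and Fbxo32. The lowest lists hold Angptl4, Lcn2, Fkbp5, Pdk4 and Sgk1, all of them glucocorticoid induced, with Angptl4 and Pdk4 also on the fat oxidation and ketone list. The muscle regulation sums at D17 were nearly equal, 8137.4 in replicate 1 and 8136.1 in replicate 2. The 16 matrix protease genes summed to 32047 in P37 replicate 2, against 21863 and 23031 in replicates 1 and 3, and to 21794 in D12 replicate 2, against 19336 in replicate 1. The 23 mitosis genes summed to 13382 in P37 replicate 2, against 20026 and 21194 in replicates 1 and 3, and to 15176 in P39 replicate 1, against 23689.9 and 23807 in replicates 2 and 3. After depilation they summed to 19629 in D12 replicate 2, against 28876 in replicate 1, and to 23339.8 in D17 replicate 1, against 29217 in replicate 2. The 15 melanocyte genes summed to 14176, 17569.7, 16748.5 and 15536 on the 4 arrays and to 28277, 29121, 34936, 32428, 46541 and 37538 on the other arrays of these days. At P41 the mitosis sum was 5406 to 9527 and the melanocyte sum 7936 to 8350.0. Hair shaft sums on the 4 arrays stayed at 290626 or more. The part of any of these lists in the members' values was not tested. The natural arrays of the 4 did not share a sex, since P37 replicate 2 was male and P39 replicate 1 female.

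**Figure D5:**
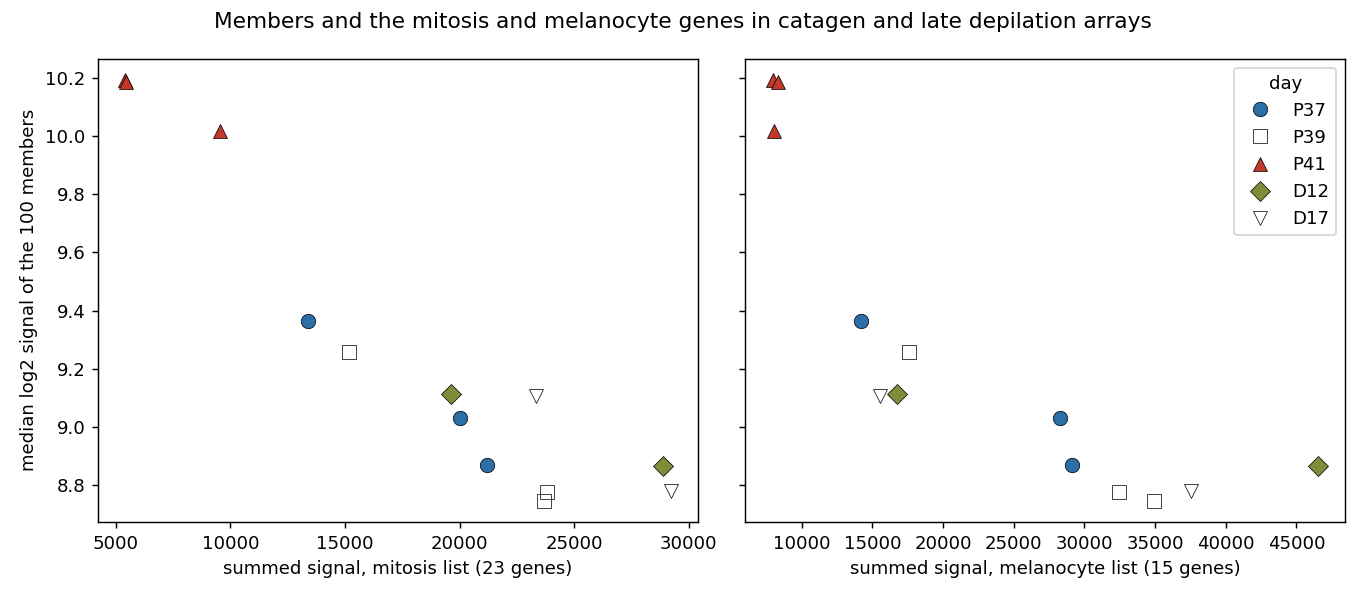
Median log2 signal of the 100 members (vertical) against the summed signal of 23 mitosis genes (left) and of 15 melanocyte genes (right), each point 1 array of P37, P39, P41, D12 or D17. Within P37, P39, D12 and D17 the array with the highest median of members has the lowest melanocyte and mitosis sums, and the 3 P41 arrays stand at the top left with medians of 10.02 to 10.19.

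Sex was tested within P25, P27, P29, P37, P39 and P44 (9 males and 8 females), as a difference between arrays of 1 day, which the rule did not use although it used the day means. limma called no member, where 0.182% of all probe sets passed (0.0519% higher and 0.13% lower in males), and 11 members and 10.2% of all probe sets had an unadjusted p under 0.05. The members' median difference (males minus females) was -0.04, against 0.01 over all. The nearest was Mamdc2, lower in males by -0.47 ± 0.11 (SE, limma adjusted p = 0.13).

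How tightly the P41 arrays agreed also varied among members. The SD of log2 signal over the 3 arrays ran from 0.02 to 1.39 with a median of 0.28, against 0.17 over all genes. In 57 members the highest P41 array was within 1.5-fold of the lowest, and in 16 it was over 2-fold above it. P41 replicate 3 was the highest in 54 members (34.9% of all genes), replicate 2 in 26 (29.0%) and replicate 1 in 20 (36.1%). Of the 37 members with further probe sets above the filter, 26 had a score above 0 in all of them and 11 had at least 1 that did not, with Ccn1 and Trp53inp1 among them, and 63 members rest on 1 probe set.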

How the data were processed

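RNA of dorsal skin from 33 C57BL/6 mice had been hybridized to Affymetrix arrays, 1 mouse each. The deposited values were linear signal intensities that the authors computed with MAS5 (version not given in the sources used here) and brought to a common mean over arrays. Array medians ran from 111.2 to 142.5. Of 45037 probe sets, 34945 carried 1 gene symbol in the platform annotation, 932 several and 9160 none. Values under 34.6, the 25th percentile of all values, were set to it and converted to log2. A probe set was kept if it exceeded the array median on at least 3 arrays, which left 26988. The kept probe set with 1 symbol and the highest mean log2 stood for each of 12867 genes. MAS5 signals of dim probe sets are noisy, and the floor understates differences of low genes.

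The members and the 49 gene lists were chosen with earlier results of these data known. Single genes were named by rank (the 20 highest scores, the last 3 members and the first 3 outside), or as members past a depilation or sex test, as up to 6 members per list and as the 10 with the widest gap between P41 and the other arrays (44 in all). Spock2, Creb3l4, Kcna5, Trp53inp1, Wnt9a, Krt6a, Lrig1, Gata6 and some arrays compared within a day were chosen after their values were seen, as was the glucocorticoid receptor motif.

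Depilation days were fitted with limma 3.58.1 in R 4.3.3 on 10 arrays, and sex with day as a term on 17, with Benjamini-Hochberg adjustment over all 26988 probe sets and a threshold of 0.05. In simulated data 100 probe sets were changed by 1 log2 unit and another 100 by 2, together. For D5 against D3, D8 and D12 against D5, and D17 against D8 and D12, the fit recovered 9%, 37% and 33% of the changes of 1. Of the changes of 2 it recovered 87%, 93% and 94%. The small number of arrays limits the precision. Where a floor value enters a group, its difference is a bound. Mice were separate animals. All 100 members were in the RefSeq table, 99 of them as protein coding genes. Alternatives covered the floor, the filter, normalization, the choice of probe set, a fit of all arrays, the replicate number as a block, the methods' t-test and leaving out each array.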

Additional observations from a re-analysis of the deposited data

Results flagged for a closer look

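The check used the 4 late anagen arrays after depilation (D8 and D12), the one compared group large enough for it. For draws from 1 distribution, chance alone marks about 1 group in 20. In 11 of the 44 genes named, 1 array stood far from the others. The measure is the gap between that array and its nearest neighbour on the log2 scale, divided by the whole range, set against Dixon's critical value. In 6 genes the array was D12 replicate 2 and it was the high one. The ratio was 1 for Gm9789 (176) and Foxc2 (332), whose other 3 arrays were under the floor, 0.864 for Mmp11, 0.891 for Pcp4, 0.835 for Tll1 and 0.969 for Shisa2. These genes are of one list and share arrays, so the flags are not independent of each other. The arrays also come from different days, and 3 arrays at the floor give a ratio of 1 by themselves. The rate of 1 in 20 therefore does not hold for the 11 genes.

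In the remaining 5 genes other arrays stood apart. The ratio was 1 for Best2, with 50.7 in D12 replicate 1, and 1 for Col9a3, with 45.2 in D8 replicate 2, both beside arrays under the floor. It was 0.884 for Clvs1, whose low array was D8 replicate 1 (34.2), 0.896 for Rerg, the third gene outside the members, in D12 replicate 1 (209), and 0.831 for Atp13a5 in D8 replicate 2 (44.5). Apart from Rerg, whose 4 arrays were at 129.9 to 209, each of these genes had at least 1 of the 4 arrays under the floor, which sets part of the range.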

How the results depend on the processing

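The list itself depended little on the processing. Of the 100 members, 80 (median of each day in place of the mean) to 100 (floor of 16) remained under the 9 other settings tried, and 75 (without P41 replicate 1) to 100 (without P27 replicate 2) when each array was left out in turn. The 20 members with the largest score stayed in under all of them, except Lcn2 without P44 replicate 2. The counts of depilation calls depended more. For D5 against D3 the 5 calls became 3 with no filter on dim probe sets, 10 in a fit of all 33 arrays, 1 by the methods' t-test at an unadjusted p under 0.01 and 0 by it after Benjamini-Hochberg adjustment, and 1 (without D8 replicate 1) to 4 (without D5 replicate 1) with an array left out. For D8 and D12 against D5 the 2 calls became 1 with a floor of 16, a floor of 64, no filter or a stricter filter, 9 in the fit of all arrays, 0 by the methods' t-test after adjustment, and 1 (without D8 replicate 1) to 7 (without D5 replicate 2) with an array left out. Across the 5 days the 19 calls became 8 with no filter, 35 in the fit of all arrays, and 9 (without D17 replicate 1) to 24 (without D5 replicate 2) with an array left out. For D17 against D8 and D12, and for males against females, the count was 0 whichever array was left out. With the P41 arrays added to the sex fit, 1 member was called, lower in males. P41 had been left out because its arrays set the score, so nothing is read from that call. Over the 7 named calls, limma alternatives kept the call 92 times, lost it 40 times and reversed it 0 times, and the methods' t-test, applied to single genes after seeing the data, kept 3 and lost 4 at an unadjusted p under 0.01 and lost all 7 after adjustment. The cause was not tested. Replicate numbers are shared across days, but same-numbered arrays did not deviate together (r from -0.26 to 0.39 over 10 pairs of days, 2 above 0.1), so the numbers do not pair the mice; with the replicate number as a block the counts were 3 for D5 against D3, 1 for D8 and D12 against D5, 0 for D17 and 13 across the 5 days. With 2 arrays a day, changes of 1 log2 unit are mostly missed, and dim members cannot be measured below the floor.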
